A study of Mus musculus with 2 samples.

Results

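Mrc1, Folr2, Lyve1, Timd4, Cd163, Cbr2, F13a1 and Gas6 are genes commonly used to describe tissue-resident macrophages that clear debris, glycoproteins and dying cells. They were taken by symbol from the 28692 genes of the deposited matrices, all 8 were found, and their unique molecular identifiers (UMIs, read groups that each trace back to 1 captured RNA molecule) were summed in each deposited cluster and library. Clusters 3, 5 and 8, which hold most UMIs of Mrc1, F13a1 and Cd163, are described in most detail. The cells were CD45+ leukocytes of adipose tissue (visceral, per the title) from adult wt C57BL/6 mice, kept on chow (control) or on a ketogenic diet for 1 week. Cells in the circulation had been told apart by intravenous labelling, and the exact ages, sexes and numbers of mice per library are not given in the sources used here. Each diet was 1 library, so each comparison below is between those 2 libraries and not between diets, and there is no test and no replicate check.

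Resident macrophages of fat sit along vessels and among adipocytes and take up material through endocytic receptors. Mrc1 encodes the mannose receptor, Cd163 the receptor for haptoglobin bound to haemoglobin, Lyve1 a hyaluronan receptor and Folr2 the beta folate receptor. Timd4 encodes a receptor for phosphatidylserine, the lipid exposed on dying cells, and Gas6 is a secreted ligand that bridges this lipid to the TAM receptor kinases (Tyro3, Axl and Mertk). Cbr2 is a carbonyl reductase, and F13a1 encodes the A subunit of coagulation factor XIII, a transglutaminase that cross-links fibrin.

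The chow library held 4458 cells with a deposited cluster number and the ketogenic library 5559, with median depths of 3469 and 3461.5 UMIs over all cells of the matrices. In total 41 cell barcodes occurred in both libraries, 3 of them in the same cluster. Summed UMIs are given as CPM, counts per 1000000 UMIs of the same cells, and square brackets give 95% intervals (exact Poisson for a level, exact conditional for a ratio, exact binomial for a share) that cover counting error only. Cluster 3 was macrophage-like, with 9 of 10 macrophage markers raised and Apoe and C1qb among its 10 leading genes, and it also carried 4 of 8 monocyte markers and 3 of 6 neutrophil markers. Cluster 5 was cDC2-like (conventional dendritic cells type 2, with Cd209a, Clec10a and Mgl2 leading, and with 5 of 9 cDC2 and 4 of 6 plasmacytoid dendritic cell markers raised), and cluster 6 was cDC1-like with 7 of 7 markers raised. Cluster 8 was led by Retnla, Fcrls and Lyz1 and has no name here, since none of the 4 cDC2 markers raised in it was among its leading genes. Cluster 10 was led by cell cycle genes. Cluster 3 held 859 chow and 145 ketogenic cells, cluster 5 held 344 and 358, and cluster 8 held 362 and 47.

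The 4 members with the most UMIs peaked in different clusters, and their promoters are shown so that the sequences can be read beside those patterns. Each is a 300-base window around a transcription start in RefSeq for GRCm38.p6, with 250 bases before the start and 50 after it, read 5′ to 3′ on the gene's strand. Capitals mark letters found on either strand of the PU-box core GAGGAA, of the ETS-IRF element (GGAA and GAAA with 2 bases between them) or of the MAF half-site TGCTGA. No marked match overlaps another. F13a1 has 2 windows in RefSeq, and the one nearest to its annotated gene start is shown.
Mrc1: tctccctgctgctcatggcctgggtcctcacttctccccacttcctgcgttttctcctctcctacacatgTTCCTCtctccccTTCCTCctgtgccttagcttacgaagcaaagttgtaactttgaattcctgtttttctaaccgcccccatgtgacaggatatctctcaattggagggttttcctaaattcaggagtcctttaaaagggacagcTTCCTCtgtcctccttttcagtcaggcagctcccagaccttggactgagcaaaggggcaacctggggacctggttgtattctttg
F13a1: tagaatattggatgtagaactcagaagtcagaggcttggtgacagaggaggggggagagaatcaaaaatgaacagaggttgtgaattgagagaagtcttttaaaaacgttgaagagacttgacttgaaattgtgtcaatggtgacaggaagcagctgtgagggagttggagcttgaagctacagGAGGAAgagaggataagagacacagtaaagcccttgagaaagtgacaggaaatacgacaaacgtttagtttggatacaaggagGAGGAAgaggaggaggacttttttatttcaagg
Timd4: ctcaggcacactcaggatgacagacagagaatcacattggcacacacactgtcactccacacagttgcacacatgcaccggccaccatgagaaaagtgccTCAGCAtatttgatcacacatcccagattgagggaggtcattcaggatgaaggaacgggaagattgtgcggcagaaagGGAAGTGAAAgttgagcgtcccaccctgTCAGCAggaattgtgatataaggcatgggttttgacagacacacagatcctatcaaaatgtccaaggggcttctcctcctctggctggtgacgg
Cd163: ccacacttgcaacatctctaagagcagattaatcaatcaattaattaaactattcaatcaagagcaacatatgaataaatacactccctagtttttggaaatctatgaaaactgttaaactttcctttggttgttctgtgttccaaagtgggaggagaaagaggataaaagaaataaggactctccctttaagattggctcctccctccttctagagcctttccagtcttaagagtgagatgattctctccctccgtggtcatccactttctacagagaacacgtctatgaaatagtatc
The windows lie at chr2:14229164-14229463 (Mrc1, plus strand), chr13:37050195-37050494 (F13a1, minus), chr11:46810549-46810848 (Timd4, plus) and chr6:124304401-124304700 (Cd163, plus). The PU-box core was in 28.3% of 32851 such windows, the ETS-IRF element in 2.72% and the MAF half-site in 19.5%. Mrc1 held 3 PU-box cores and F13a1 held 2. Timd4 held 1 ETS-IRF element and 2 MAF half-sites, and Cd163 held none of the 3 motifs. A match describes the letters in the window and shows no binding. RefSeq windows were matched for 7 of the 8 members, and Lyve1 was not matched.

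The label of the group fits only some of its genes in these cells. F13a1 and Cbr2 stood highest in the macrophage-like cluster 3 of both libraries. In the ketogenic library the intervals of clusters 3 and 8 overlapped for both, and Cbr2 had only 5 UMIs in cluster 3. Of the F13a1 UMIs of cluster 3, 517 of 834 in chow and 169 of 179 in the ketogenic library lay in cells with few complement C1q UMIs (split below). Mrc1 was shared between clusters 8, 3 and 5, Cd163 was highest in the cDC2-like cluster 5, and Timd4 was highest in the cDC1-like cluster 6, where markers of macrophages were low. Lyve1 and Gas6 were near 0 everywhere. The 8 genes together gave 3750 UMIs in chow and 899 in ketogenic cells with a cluster number, and Mrc1 and F13a1 gave 2105 and 1506 of the 4649.

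**Figure D1:**
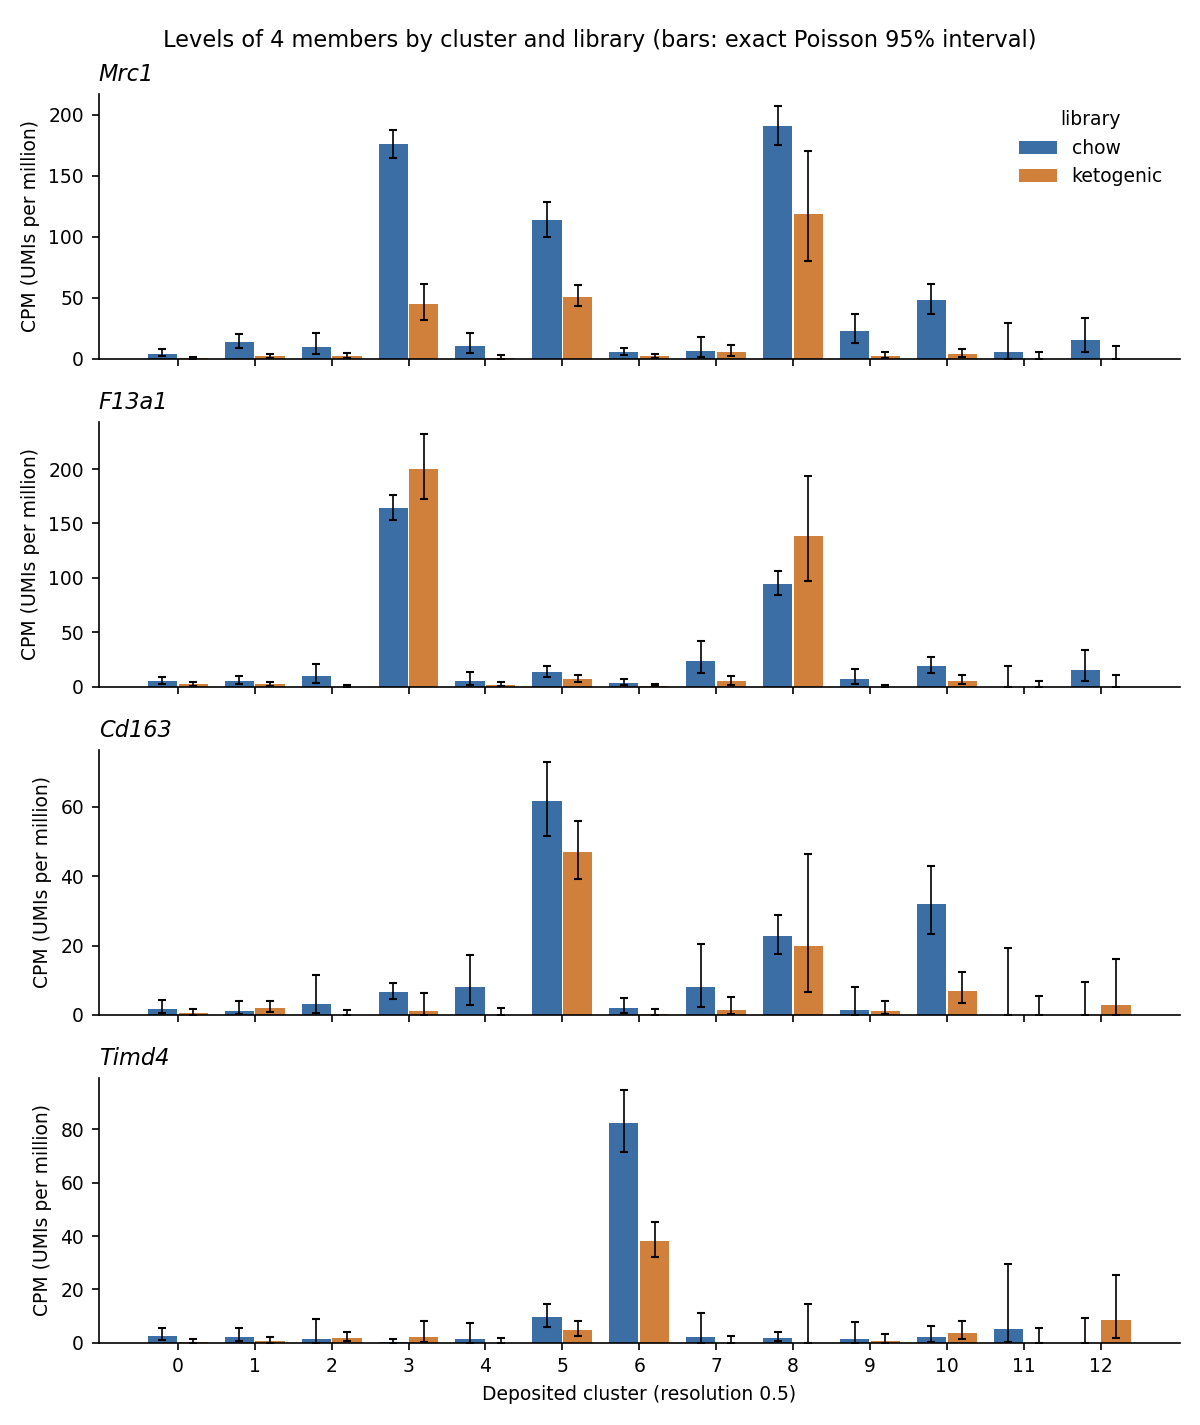
Levels of Mrc1, F13a1, Cd163 and Timd4 in CPM (vertical axis, counts per 1000000 UMIs) in the 13 deposited clusters (horizontal axis) of the chow (blue) and ketogenic (orange) libraries. Bars start at 0 and lines are exact Poisson 95% intervals; Timd4 stands at 82.4 CPM in cluster 6 of the chow library and 38.2 CPM in that of the ketogenic library, and it is below 10 CPM in every other cluster of both.

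Among the endocytic receptors, Mrc1 (ENSMUSG00000026712, chromosome 2 from 14229392 to 14332057, plus strand) had 1854 chow and 251 ketogenic UMIs. In chow cells its level was 191 CPM [175–207] in cluster 8, 176 CPM [165–188] in cluster 3 and 114 CPM [100–129] in cluster 5. In ketogenic cells it was 119 CPM [80.3–170], 44.8 CPM [32.0–61.0] and 51.0 CPM [43.0–60.2] in the same clusters. The intervals of clusters 8 and 3 overlap in chow, and those of clusters 5 and 3 overlap in the ketogenic library. The ketogenic level was lower in all 3 clusters, by 3.93-fold [2.86–5.54] in cluster 3, by 2.23-fold [1.81–2.76] in cluster 5 and by 1.60-fold [1.11–2.40] in cluster 8. In the cycling cluster 10, Mrc1 stood at 47.9 CPM [37.0–60.9] from 66 chow UMIs and at 3.76 CPM [1.38–8.19] from 6 ketogenic UMIs. Its log2 ratio there, ketogenic over chow, was −3.56, and −2.13 with clusters computed here without the members.

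Over 7 pooled lymphoid clusters, which should lack the mannose receptor, Mrc1 stood at 9.93 CPM [7.73–12.6] in chow and 1.63 CPM [1.08–2.38] in ketogenic cells. The macrophage marker list was at 207 and 87.4 CPM in those same lymphoid cells, which serve as the background here, so levels of a few CPM outside clusters 3, 5, 8 and 10 are not read as expression. After thinning every cell to 1000 UMIs, 14.2% [11.9–16.7] of chow cells and 4.14% [1.53–8.79] of ketogenic cells of cluster 3 had an Mrc1 UMI (46.4% and 16.6% unthinned). The NK-like cluster 1, where no mannose receptor is expected, gave thinned shares of 1.24% and 0.188% (3.18% and 0.659% unthinned). Median depths were 5543 and 5589 UMIs in cluster 3, against 2296.5 and 3147 in cluster 1.

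Cd163 (ENSMUSG00000008845, chromosome 6 from 124304656 to 124330527, plus strand) had 303 chow and 162 ketogenic UMIs. Its level in cluster 5 was 61.7 CPM [51.7–72.9] from 136 chow UMIs and 47.0 CPM [39.3–55.9] from 130 ketogenic UMIs, a ratio of 0.763 [0.595–0.978]. With clusters computed here without the members its log2 ratio in the matched cluster was 0.18, so the direction turned, and that cluster also took in 327 of the 362 chow cells of cluster 8. The thinned share of its cells with a Cd163 UMI was 5.81% and 4.47% (23.0% and 22.6% unthinned, at median depths of 6352.5 and 7722.5 UMIs), against 0.138% and 0.188% in cluster 1. The cDC2-like cells held 44.9% of the chow and 80.2% of the ketogenic UMIs of this gene. In chow cells cluster 10 followed at 31.9 CPM [23.2–42.8] and cluster 8 at 22.7 CPM [17.5–28.8], 2 levels whose intervals overlap. Cluster 3 stood far lower, at 6.50 CPM [4.47–9.13] from 33 chow UMIs and 1.12 CPM [0.0283–6.24] from 1 ketogenic UMI. The ratio was 0.172 with an interval of 0.00424 to 1.03. Pooled lymphoid cells held Cd163 at 2.74 CPM [1.65–4.27] in chow and 0.786 CPM [0.419–1.34] in the ketogenic library. The lymphoid clusters 4 and 7 stood at 7.96 and 8.03 CPM in chow, from 6 and 4 UMIs. In cluster 8 there were 66 and 5 UMIs, with a ratio of 0.876 [0.275–2.15], and the log2 ratio was 2.20 in the cluster matched to it without the members.

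The cells of cluster 5 with a Cd163 UMI were compared with the rest of that cluster, as a description, since a UMI is found more readily in deeper cells. Of 344 chow cells 79 had one, and of 358 ketogenic cells 81 had one, with median depths of 6602 and 8346 UMIs against 6282 and 7539 in cells without. The cDC2 marker list stood at 3359 CPM in chow cells with a Cd163 UMI and at 2740 CPM in cells without, and at 3063 and 2466 CPM in the ketogenic library. Retnla, a secreted protein of alternatively activated myeloid cells, stood at 664 CPM with and 58.2 CPM without in the ketogenic library, and at 1597 and 770 CPM in chow. In the 7 lymphoid clusters it stood at 436 to 1403 CPM in chow and at 45.4 to 221 CPM in ketogenic cells, so the chow value without a Cd163 UMI lies within that range and the one with it somewhat above. C1qa, a complement subunit made by macrophages, was at 11.6 CPM with and 3.56 CPM without a Cd163 UMI in chow, from 6 UMIs each, and at 0 with and 11.2 CPM without in the ketogenic library.

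Folr2 (ENSMUSG00000032725, chromosome 7 from 101839988 to 101857194, minus strand) had 41 chow and 13 ketogenic UMIs. In cluster 3 it had 35 chow UMIs, or 6.89 CPM [4.80–9.58], and 0 ketogenic UMIs, which is at least 2.05-fold lower when the ketogenic sum is set to 3 UMIs. The exact conditional interval of the ratio ran from 0 to 0.632, which is at least 1.58-fold lower and does not reach 2-fold. In cluster 5 it went the other way, with 1 chow and 10 ketogenic UMIs, a ratio of 7.98 [1.14–346], and 5 of those 10 UMIs came from 1 cell. Cluster 8 had 2 and 0 UMIs. Lyve1 (ENSMUSG00000030787, chromosome 7 from 110850607 to 110863239, minus strand) had 12 chow and 7 ketogenic UMIs, with no cluster above 2.27 CPM. Lymphatic endothelial cells also make Lyve1. Of 8 endothelial markers 2 to 4 were detected in clusters 3, 5 and 8, with a summed level of 6.53 to 19.2 CPM, and Prox1, Flt4 and Mmrn1 were at 0 in these clusters of both libraries. Of the other markers that lymphatic vessels carry, Ccl21a was detected in cluster 8 of both libraries, and Pdpn in cluster 3 of both and in clusters 5 and 8 of chow. Over all clustered cells the ratio of Lyve1 was 0.481 [0.161–1.33], so no difference was detectable at this depth.

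Among the genes for clearance of dying cells, Timd4 (ENSMUSG00000055546, chromosome 11 from 46810800 to 46844332, plus strand) had 247 chow and 166 ketogenic UMIs. Cluster 6 held 201 and 133 of these, 81.4% and 80.1%. Its level there was 82.4 CPM [71.4–94.6] in chow and 38.2 CPM [32.0–45.3] in ketogenic cells, 2.16-fold lower [1.72–2.71]. The thinned share of cells with a Timd4 UMI was 7.49% and 3.38% in cluster 6 (30.3% and 18.3% unthinned), against 0.138% and 0.0942% in the NK-like cluster 1 (0.552% and 0.188% unthinned). Median depths were 7906 and 9922 UMIs in cluster 6. Cells of cluster 6 with a Timd4 UMI carried the cDC1 list at 3072 CPM in chow and 3385 CPM in ketogenic cells, close to the 3169 and 3613 CPM of cells without one. The macrophage list stood at 351 CPM with and 291 CPM without a Timd4 UMI in chow, and at 247 and 240 CPM in the ketogenic library.

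In the macrophage-like cluster 3 Timd4 had 2 UMIs in each library, and in cluster 8 it had 5 and 0. Cluster 5 held 21 chow UMIs, 52.4% of them in 1 cell, and 13 ketogenic UMIs, a ratio of 0.494 [0.227–1.03]. With cells of at most 10000 UMIs the log2 ratio there was 0.24, so the direction turned. Gas6 (ENSMUSG00000031451, chromosome 8 from 13465374 to 13494490, minus strand) had 7 chow and 15 ketogenic UMIs and stayed at or below 2.24 CPM in each cluster. Its ratio over all clustered cells was 1.77 [0.679–5.13], so no difference was detectable for this ligand at this depth.

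Among the enzymes, F13a1 (ENSMUSG00000039109, chromosome 13 from 36867178 to 37050244, minus strand) had 1231 chow and 275 ketogenic UMIs and followed another course than Mrc1. In cluster 3 its level was 164 CPM [153–176] in chow and 200 CPM [172–232] in ketogenic cells, a ratio of 1.22 [1.03–1.44]. In cluster 8 it was 94.8 CPM [83.9–107] and 139 CPM [96.8–193], a ratio of 1.47 [1.0003–2.09]. In the cDC2-like cluster 5 it was low, with 30 and 20 UMIs and a ratio of 0.532 [0.286–0.968]. Its levels there, 13.6 and 7.24 CPM, stood beside 7.20 and 1.69 CPM in the pooled lymphoid cells, and its log2 ratio of −0.90 became −1.76 with clusters computed here without the members. The thinned share of cluster 3 cells with an F13a1 UMI was 14.3% [12.04–16.8] in chow and 15.2% [9.76–22.1] in ketogenic cells (48.3% and 44.8% unthinned), against 0.552% and 0.188% in cluster 1 (1.38% and 0.565% unthinned).

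Cbr2 (ENSMUSG00000025150, chromosome 11 from 120729489 to 120732114, minus strand) had 55 chow and 10 ketogenic UMIs. Cluster 3 held 50 and 5 of them, 9.84 CPM [7.31–12.98] against 5.60 CPM [1.82–13.1], with a ratio of 0.569 [0.177–1.42] that includes no difference, and 3 of the 5 ketogenic UMIs came from 1 cell. Its log2 ratio of −0.69 there ran from −1.71 to −0.65 over the alternatives given at the end, past 2-fold in some. Clusters 5 and 8 held 0 and 1 of its UMIs over both libraries.

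A member counted as lower or higher when its ratio, with 0.5 added to each count, was at least 2-fold and the cluster held 10 or more of its UMIs, both libraries together. In cluster 3, 5 of the 8 members had enough UMIs, 3 were lower in the ketogenic library (Mrc1, Folr2 and Cd163) and 0 were higher. Of 10008 genes tested there, 6.27% were lower and 7.34% higher. The median log2 ratio of the 5 was −1.96, or −1.04 with Folr2 set to its bound, against 0.07 over all genes. Folr2 and Cd163 rest on 0 and 1 ketogenic UMIs, so Mrc1 is the one well-counted gene of the 3. The chow level of Cd163 in cluster 3 was also below that in the lymphoid clusters 4 and 7. In cluster 5, of 5 members with enough UMIs 1 was lower (Mrc1) and 1 higher (Folr2), against 3.43% lower and 5.95% higher of 9912 genes, and the median was −0.90 against 0.05. In cluster 8, 3 members had enough UMIs and 0 passed 2-fold in either direction, against 13.2% lower and 6.88% higher of 8900 genes, with medians of −0.07 and −0.01.

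Outside these clusters, Mrc1, Timd4 and F13a1 had enough UMIs in cluster 6 and all 3 were lower in the ketogenic library, where 4.1% of genes were lower and 4.36% higher. Mrc1 and F13a1 had 13 and 9 chow UMIs there, at 5.33 and 3.69 CPM, no higher than in the pooled lymphoid cells. Their ratios, 0.377 [0.127–1.02] and 0.311 [0.0700–1.12], have intervals that include 1. In cluster 10, Mrc1, Cd163 and F13a1 were lower, where 6.49% of genes were lower and 8.48% higher. In cluster 10, with 142 chow and 154 ketogenic cells, the cDC1 list stood at 1459 and 1295 CPM and the cDC2 list at 682 and 421 CPM. The macrophage list stood at 432 and 233 CPM, the T cell list at 478 and 1727 CPM and the NK list at 190 and 464 CPM. The part of this difference in cell types in the ratios of the members there was not tested.

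**Figure D2:**
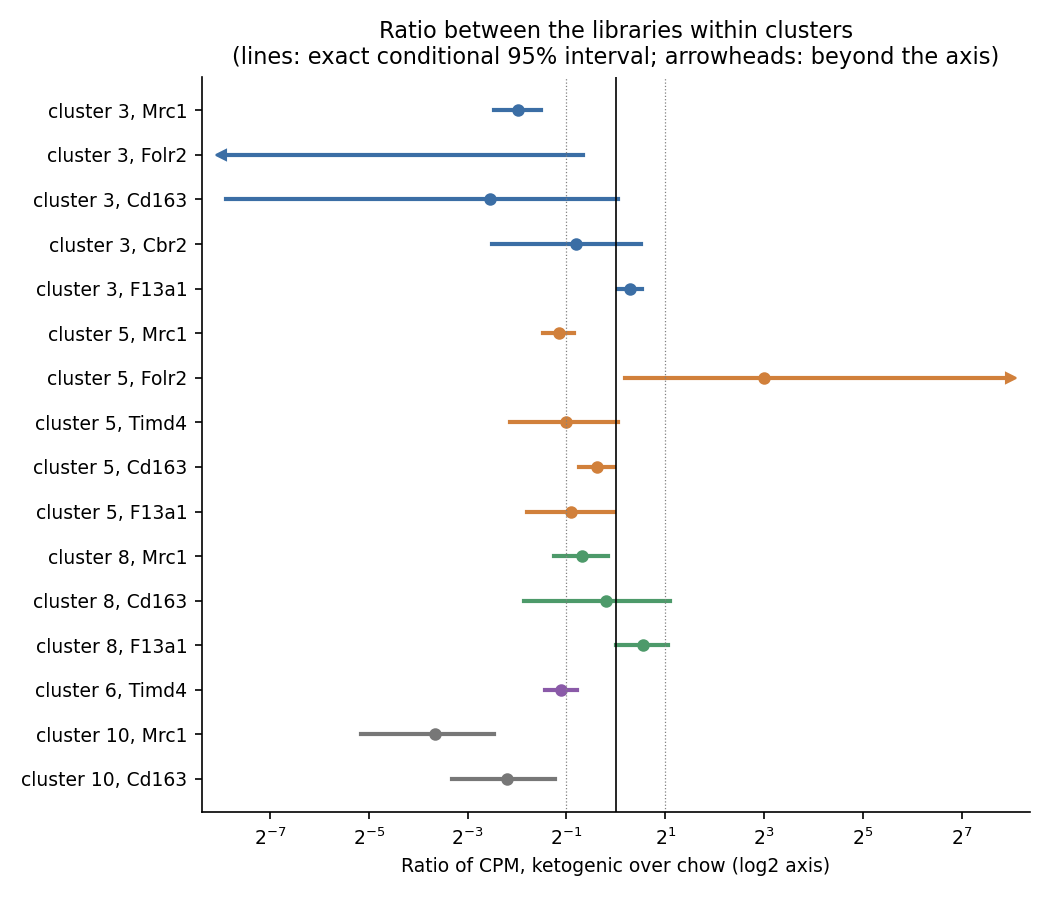
Ratio of CPM, ketogenic over chow (horizontal axis, log2 scale), for each member with at least 10 UMIs in clusters 3, 5 and 8, and for Timd4 in cluster 6 and Mrc1 and Cd163 in cluster 10. Points are ratios, lines exact conditional 95% intervals, arrowheads intervals that run beyond the axis, and dotted lines mark 2-fold; Folr2 in cluster 3 has no point since it had 0 ketogenic UMIs. Mrc1 lies below 1 in clusters 3, 5, 8 and 10, while F13a1 lies above 1 in clusters 3 and 8.

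Other marker lists also differed between the libraries within clusters, first in cluster 3. The neutrophil list summed to 304 CPM in chow and 58.2 CPM in ketogenic cells, the ILC2 list to 384 and 106 CPM, the T cell list to 129 and 255 CPM, and the NK list to 68.5 and 180 CPM. The macrophage list summed to 5863 and 7435 CPM and the monocyte list to 5768 and 7383 CPM. Within the monocyte list Ly6c2 stood at 366 and 801 CPM and Ccr2 at 922 and 969 CPM. Ly6c2 does not mark monocytes alone here, since it stood at 2172 and 2046 CPM in the NK-like cluster 1 and at 3225 and 3467 CPM in the lymphoid cluster 4. Within the macrophage list Apoe alone went from 3064 to 4668 CPM, a gain as large as that of the whole list, while C1qa (370 and 277 CPM), C1qb (787 and 481 CPM) and C1qc (272 and 183 CPM) were lower in ketogenic cells. Adgre1 stood at 160 and 139 CPM, Csf1r at 344 and 415 CPM and Fcgr1 at 125 and 268 CPM, so the list did not move as one. The T cell list also differed in cluster 5 (115 and 442 CPM), cluster 6 (69.7 and 230 CPM) and cluster 8 (131 and 294 CPM). Their part in the member ratios was not tested.

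Cluster 3 was then split at 0.1% of UMIs from C1qa, C1qb and C1qc, complement genes that mark macrophages. The split is a range and not a type, and 97 chow and 12 ketogenic cells (11.3% and 8.28%) lay between 0.05% and 0.2%. The C1q-high part held 261 chow cells (30.4% of the cluster) and 21 ketogenic ones (14.5%). In chow cells the C1q-high part had more Folr2 (7.20-fold [3.18–18.3]) and Cbr2 (4.54-fold [2.44–8.80]) than the C1q-low part, with smaller ratios for Mrc1 (1.32-fold [1.15–1.52]) and F13a1 (1.31-fold [1.13–1.51]). In ketogenic cells the same ratio was 2.59 [1.23–5.20] for Mrc1 and 0.319 [0.150–0.601] for F13a1, which thus stood lower in the C1q-high part. For Cbr2 it was 8.08 [0.926–96.7], from 3 and 2 UMIs. Folr2 had 27 chow and 0 ketogenic UMIs in C1q-high cells, 16.7 CPM against an interval of 0 to 26.4 CPM, and the interval of the ratio reaches 1.70, so no difference was detectable there at this depth.

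Mrc1 was lower in ketogenic cells of both parts. It stood at 211 CPM [189–235] in chow and 93.0 CPM [49.5–159] in ketogenic C1q-high cells, a ratio of 0.440 [0.232–0.763]. It stood at 160 CPM [147–173] and 35.8 CPM [23.6–52.2] in C1q-low cells, a ratio of 0.225 [0.147–0.330]. F13a1 differed in direction between the parts, a difference that was not tested. Its level was 196 CPM [175–218] against 71.5 CPM [34.3–132] in C1q-high cells, from 317 and 10 UMIs, a ratio of 0.366 [0.174–0.681]. In C1q-low cells it was 149 CPM [137–163] against 224 CPM [192–261], a ratio of 1.501 [1.25–1.79]. The ketogenic level in C1q-high cells rests on 21 cells. The parts also differed between the libraries in other genes. Ly6c2, on the monocyte list but higher in clusters 1 and 4, stood at 143 CPM in chow and 629 CPM in ketogenic C1q-high cells. That was a ratio of 4.41 [3.41–5.67], and in C1q-low cells Ly6c2 stood at 471 and 832 CPM. Ccr2, on the same list, stood at 954 and 1087 CPM in C1q-high cells, a ratio of 1.14 [0.959–1.35]. In C1q-low cells Ccr2 stood at 907 and 947 CPM. Retnla stood at 6067 and 408 CPM in C1q-high and at 1684 and 170 CPM in C1q-low cells. The part of these differences in the Mrc1 and F13a1 ratios was not tested.

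**Figure D3:**
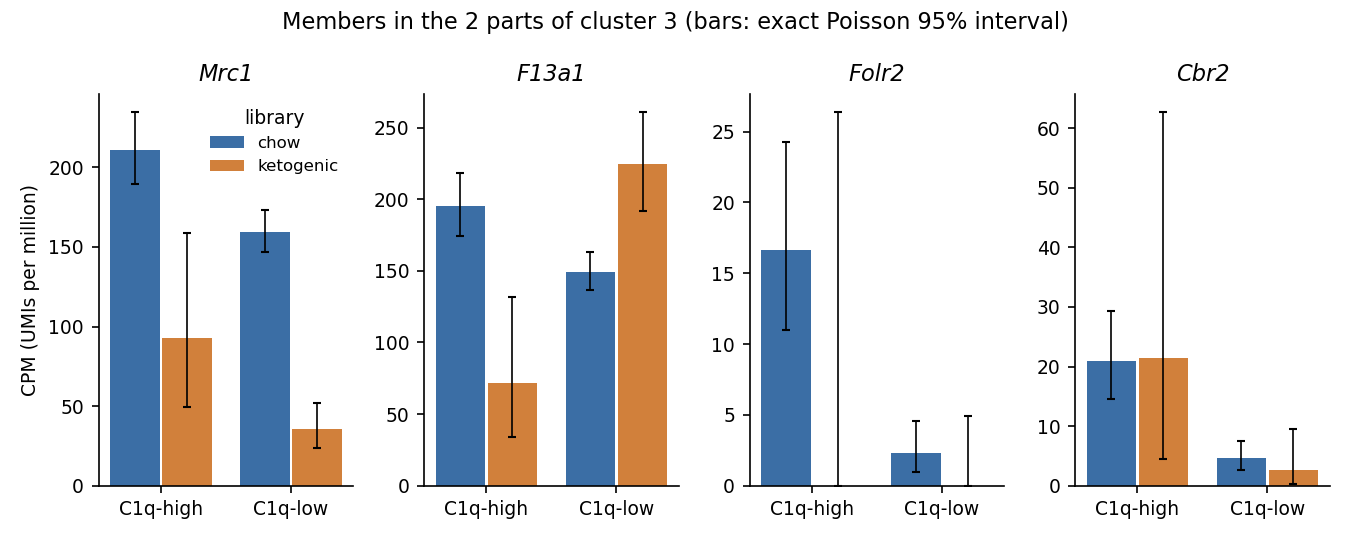
Levels of Mrc1, F13a1, Folr2 and Cbr2 in CPM (vertical axes, each with its own scale from 0) in the C1q-high and C1q-low cells of cluster 3, for the chow (blue) and ketogenic (orange) libraries, with exact Poisson 95% intervals. Mrc1 is lower in the ketogenic library in both parts, F13a1 is lower in C1q-high cells (71.5 against 196 CPM) and higher in C1q-low cells (224 against 149 CPM), and the Folr2 bars of the ketogenic library are at 0.

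In cluster 3, 29.6% of chow and 11.7% of ketogenic cells had UMIs of at least 2 members, and the shares were 15.1% and 12.8% in cluster 5 and 37.8% and 19.1% in cluster 8, where the median depths were 7938.5 and 4581 UMIs. Mrc1 and F13a1 were found together in 220 chow cells of cluster 3, against 193 from the product of their shares. That product takes no account of depth, and chow cells of cluster 3 with at least 2 members had a median of 6470 UMIs, against 5543 in the cluster. The part of depth in the excess was not tested. Folr2 and Cbr2 were found together in 7 cells, against 0.931, as a description of sparse counts.

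In 8 chow cells of cluster 3 (0.931% [0.403–1.83]) at least 4 members had a UMI, up to 7 in 1 cell. Of the 145 ketogenic cells of cluster 3, 0 had 4, with an exact interval up to 2.51% that includes the chow share. Outside cluster 3, 1 chow cell of cluster 7 had 5 members at 22724 UMIs, with a C1q share of 0.0176%, and 1 chow cell of cluster 8 had 4 with a C1q share of 0%. The 8 cells of cluster 3, picked by their members, carried 13 of the 35 Folr2 UMIs of chow cluster 3, 10 of its 50 Cbr2 UMIs, and all 4 Lyve1 and all 4 Gas6 UMIs. They carried 24 of 894 Mrc1 UMIs and 0 Timd4 UMIs. Their C1q share ran from 0.204% to 1.54%, above the split in all 8, and their depth from 4601 to 11806 UMIs. Folr2, Lyve1 and Timd4, genes often used together to define self-renewing resident macrophages, were found in the same cell in 0 of 4458 chow and 0 of 5559 ketogenic cells. Taking 3 cells as the limit of a count of 0, that allows a share of up to 0.0673% and 0.0540% of cells with all 3 detected at this depth. Lyve1 was detected in only 10 and 6 cells and Folr2 in 26 and 8, so the count of 0 cannot show whether cells make all 3. In chow, Folr2 was found with Lyve1 in 2 cells, Folr2 with Timd4 in 2 and Lyve1 with Timd4 in 1. Each pair was found in 0 ketogenic cells.

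Over all clustered cells, 6 of the 8 members were at least 2-fold lower in the ketogenic library (Mrc1, Folr2, Lyve1, Cd163, Cbr2 and F13a1) and 0 were higher, where 7.64% of 13736 genes were lower and 8.12% higher. Of these, Lyve1 rests on 19 UMIs and its interval includes 1. Mrc1 stood at 86.8 and 9.70 CPM, 8.95-fold lower [7.84–10.3] in ketogenic cells, and F13a1 at 57.7 and 10.6 CPM, 5.42-fold lower [4.76–6.204]. In bulk-like sums of this kind, fewer cells of a type and less RNA per cell cannot be told apart, so each fold was written as the product of 2 factors. The first factor gives every cluster its chow level and changes the cluster shares of UMIs, and the second changes the levels within clusters. For Mrc1 the factors were 2.85-fold from shares and 3.14-fold from levels. For F13a1 they were 3.88-fold and 1.40-fold. For Timd4 (1.80-fold lower [1.47–2.21]) the shares gave 0.849-fold and the levels 2.12-fold, and for Cd163 (2.27-fold lower [1.87–2.76]) 1.27-fold and 1.79-fold. Cbr2 (6.66-fold lower [3.36–14.7]) and Folr2 (3.82-fold lower [2.01–7.77]) had 3.14-fold and 3.38-fold from shares.

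**Figure D4:**
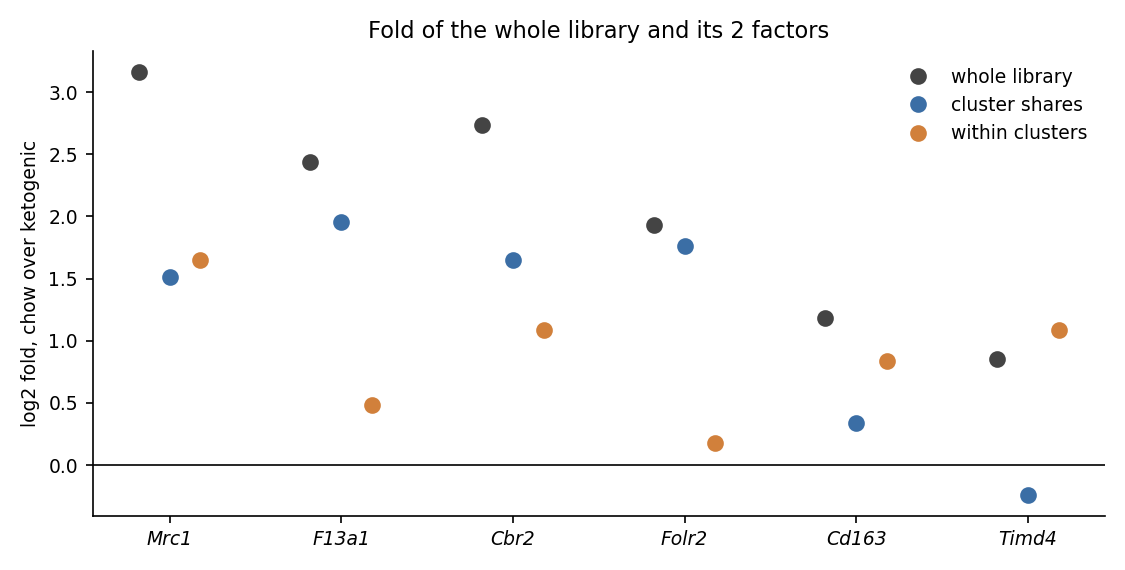
log2 fold of chow over ketogenic (vertical axis) for 6 members over all clustered cells (dark points) and its 2 factors, the cluster shares at chow levels (blue) and the levels within clusters (orange), which add up on this scale. The share factor exceeds the level factor for F13a1, Cbr2 and Folr2, and Timd4 has a share factor below 0.

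With each cluster given the same weight in both libraries, Mrc1 was 2.74-fold lower and Timd4 2.04-fold lower in ketogenic cells, while F13a1 had a ratio of 1.09. The ratio of F13a1 thus depends on the weights, since at the ketogenic shares its levels gave 1.40-fold lower. Levels within clusters include the background in lymphoid clusters, which was higher in chow for both genes.

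Genes with the most similar pattern were found from Pearson's r of log2(CPM + 10) over 26 points, the 13 clusters in 2 libraries, which share libraries and depth. Of 9119 genes with at least 200 UMIs, the 3 most like Mrc1 were Pltp (0.95), Adam15 (0.94) and Ifitm6 (0.93). Those most like F13a1 were Ms4a8a (0.96), Pla2g7 (0.95) and Csf1r (0.95), the last being the receptor for macrophage colony-stimulating factor. Those most like Cd163 were Cd209d (0.96), Cd209a (0.89) and Slc27a3 (0.89), of which Cd209a is a lectin of cDC2 cells. Those most like Timd4 included Clec9a (0.88), a receptor of cDC1 cells for dead cell material, and Lrrk2 (0.85). With log2(CPM + 1) in place of log2(CPM + 10), 0 of the 3 genes remained for F13a1, 1 for Mrc1, 2 for Timd4 and 3 for Cd163. Between members, r was 0.82 for Mrc1 and F13a1, 0.71 for Mrc1 and Cd163, 0.36 for Cd163 and F13a1, and between −0.21 and 0.01 for Timd4 with each of the other 3.

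Related genes of the same roles were compared in cluster 3 by the same rule. Of 15 scavenger and lectin receptors with enough UMIs, 5 were lower (Cd36, Olr1, Siglec1, Clec10a and Mgl2) and 2 were higher, with a median log2 ratio of −0.16. Cd36, a receptor for oxidised lipoproteins and fatty acids, stood at 229 CPM in chow and 64.9 CPM in ketogenic cells, a ratio of 0.284 [0.214–0.369]. Mgl2, a galactose-type lectin, had a ratio of 0.332 [0.220–0.483] and Olr1 one of 0.401 [0.196–0.737]. The class A scavenger receptor Msr1 stood the other way, at 80.7 and 223 CPM, a ratio of 2.76 [2.32–3.28], as did the lectin Clec4n at 2.89 [2.42–3.44], and Cd68 had a ratio of 1.51 [1.36–1.67]. Endocytic receptors of this cluster thus lay on both sides of 1.

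Of 16 efferocytosis genes 2 were lower (Mertk and Dock1) and 1 was higher (Abca1), with a median of −0.17. C1qa, C1qc and C1qb had the lowest ratios among those with at least 100 UMIs, 0.747 [0.652–0.854], 0.671 [0.567–0.790] and 0.611 [0.552–0.676]. The highest there were Cd300lf at 1.25 [0.705–2.10], Elmo1 at 1.25 [0.853–1.80] and Itgb5 at 1.13 [0.773–1.60], with intervals that include 1.

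Of 9 genes for haem and iron uptake 0 were lower and 1 was higher, with a median of 0.14. Hp, which encodes the haptoglobin that Cd163 takes up, stood at 158 CPM in chow and 324 CPM in ketogenic cells, a ratio of 2.04 [1.78–2.34]. Slc48a1, a haem transporter, had a ratio of 1.35 [0.922–1.93] and the ferritin chain Fth1 one of 1.33 [1.29–1.37]. The lowest were Hmox1, haem oxygenase, at 0.759 [0.574–0.989], Slc11a1 at 1.04 [0.831–1.29] and Blvrb at 1.07 [0.817–1.38].

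Of 26 other genes of the resident macrophage program 7 were lower (Pf4, Ccl24, Ednrb, Pltp, Ltc4s, Il10 and Fcrls) and 2 higher (Ninj1 and Cd38), with a median of −0.42. Ccl24, an eosinophil-attracting chemokine, stood at 1371 CPM in chow and 82.9 CPM in ketogenic cells, a ratio of 0.0604 [0.0474–0.0760]. Ltc4s, leukotriene C4 synthase, had 289 and 3 UMIs, a ratio of 0.0590 [0.0121–0.174], and Fcrls had a ratio of 0.222 [0.0945–0.446]. Ninj1 stood at 2.44 [2.14–2.79], Nrp1 at 1.66 [1.22–2.24] and Apoe at 1.52 [1.47–1.58]. Genes of this program therefore also lay on both sides of 1.

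Of 9 folate and carbonyl genes 0 were lower and 1 was higher (Dcxr, 2.03 [1.35–2.99]), with a median of 0.49. Mthfd2, of mitochondrial folate metabolism, had a ratio of 1.58 [1.11–2.21] and Ggh, gamma-glutamyl hydrolase, one of 1.40 [1.14–1.70]. Of 10 coagulation and matrix genes 3 were lower (F7, Plau and Cd44) and 0 higher, with a median of −0.18. Cd44, the main hyaluronan receptor, stood at 1103 CPM in chow and 513 CPM in ketogenic cells, a ratio of 0.465 [0.422–0.511]. Tgm2, a tissue transglutaminase, had a ratio of 0.794 [0.625–0.997], while Plaur, F10 and Thbd had ratios of 0.978 [0.867–1.10], 1.13 [0.908–1.40] and 1.01 [0.653–1.499]. Over the 6 lists together, 17 of 85 genes were lower and 7 higher in cluster 3, 7 and 3 of 73 in cluster 5, and 7 and 5 of 67 in cluster 8, as shares 20% and 8.24%, 9.59% and 4.11%, and 10.4% and 7.46%. Over all genes tested the shares were those given above, 6.27% and 7.34% in cluster 3.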

How the data were processed

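The data were 2 single-cell RNA libraries prepared with a 10x Genomics protocol, per the labels. The deposited values are raw UMI counts for each cell and gene, whole numbers without normalisation per the file headers. Per the submitters' processing notes the tools were Cell Ranger and Seurat with the mm10 build, and versions are not given in the sources used here. The authors' deposited cluster table gives a cluster number from 0 to 12 (resolution 0.5 per the file headers) and t-SNE coordinates, an embedding score that was not used. All 142 cells outside it had more than 5% mitochondrial UMIs. No doublet caller was run here, and cells of at most 10000 UMIs served as an alternative.

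UMIs were summed per cluster and library and given as CPM with exact intervals (Python 3.11.15, scipy 1.17.1, numpy 2.4.6, pandas 2.3.3). With 1 library per diet no test was made and no p-value computed. Ratios are ketogenic over chow, with 0.5 added to each count on the log2 scale, and a call needs 2-fold and 10 UMIs. A marker counted as raised when its CPM plus 20 was at least 2-fold that in all other clustered cells. Cells were thinned to 1000 UMIs by the exact hypergeometric expectation, rounded to whole cells, which left out no cell. Simulated counts with known folds were used to check the calls and intervals.

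The members, gene lists and marker lists were chosen with earlier results of these data known. Named genes are all 8 members, the 3 genes most like each member with at least 200 UMIs, and from each related list the 3 highest and 3 lowest ratios in cluster 3 among genes with at least 100 UMIs. Genes named only as past 2-fold, without values, follow the counts. One result under this rule is not reported here. Alternatives were another scaling, cell filters, subtraction of free RNA, a Leiden clustering without the members (scanpy 1.11.5, leidenalg 0.10.2, 30 components, 15 neighbours, resolution 0.5), other minimums, folds and cuts. Leaving out the 41 shared barcodes, and the alternatives for clusters 6 and 10, were chosen after seeing the data.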

Additional observations from a re-analysis of the deposited data

Results flagged for a closer look

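Folr2 went in opposite directions in the macrophage-like cluster 3 and the cDC2-like cluster 5, a difference that was not tested. Its log2 ratio, ketogenic over chow with 0.5 added to each count, was −3.64 in cluster 3 (35 chow and 0 ketogenic UMIs) and 2.48 in cluster 5 (1 and 10 UMIs). The value in cluster 3 depends on the 0.5 added, and the counts give only a bound, at least 2.05-fold lower with the ketogenic sum set to 3 UMIs and 1.58-fold by the exact interval. In cluster 5, 5 of the 10 ketogenic UMIs came from 1 cell.

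F13a1 also differed in direction between clusters, again without a test. Its log2 ratio was 0.29 in cluster 3 and 0.57 in cluster 8, against −0.90 in cluster 5, where it had 30 and 20 UMIs. In cluster 5 it ran from −1.76 to −0.35 over the alternatives, and its levels of 13.6 and 7.24 CPM stood beside a lymphoid background of 7.20 and 1.69 CPM.

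Within cluster 3, F13a1 had a log2 ratio of −1.38 in C1q-high cells (317 chow and 10 ketogenic UMIs) and of 0.59 in C1q-low cells (517 and 169 UMIs), and this difference was not tested either.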

How the results depend on the processing

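No paired analysis was possible because each diet had 1 library, and for the same reason no replicate could be left out. The 3 members lower in cluster 3 became 1 at a minimum of 50 UMIs, since Folr2 and Cd163 have fewer. With Cbr2 added they became 4 with the mean of CPM over cells, with cells of at most 10000 UMIs, without the top cell of each member and at 1.5-fold. The 1 member lower in cluster 5 became 2 with scaling by the median ratio, 2 after subtraction of free RNA, 2 with clusters computed here, 2 with no minimum, 3 at 1.5-fold and 0 at 3-fold. The 0 members lower in cluster 8 became 1 at 1.5-fold. In the clustering computed here 327 of 362 chow cells of cluster 8 joined the cluster matched to cluster 5, which left 18 chow and 20 ketogenic cells in the one matched to cluster 8. There the log2 ratio of Cd163 was 0.18 in cluster 5 and 2.20 in cluster 8, and that of Mrc1 was −1.54 in cluster 5, −0.12 in cluster 8 and −2.13 in cluster 10. Timd4 in cluster 5 moved to 0.24 with cells of at most 10000 UMIs. All 39 alternatives for single members in cluster 3, the 8 for Timd4 in cluster 6 and the 18 for the C1q parts stayed within counting error of the values given, as did all 19 values without the shared barcodes. For sparse members that says little, since their intervals are wide and that of Folr2 in cluster 3 starts at a ratio of 0. In cluster 3 the log2 ratio of Cd163 ran from −3.42 to −1.63 and that of Cbr2 from −1.71 to −0.65. In C1q-high cells both changed sign at the 0.05% cut. With log2(CPM + 1) in the likeness, 1 of the 3 genes most like Mrc1 and 0 of those most like F13a1 remained. Depth limits Lyve1, Gas6, Cbr2 and Folr2, and every value of the 47 ketogenic cells of cluster 8.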
